A study of Xenopus laevis with 6 samples.

Results

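Vesicular glutamate transporters and transcription factors of glutamatergic neurons were followed in RNA from the optic tectum, a midbrain structure that receives input from the eye, of Xenopus laevis tadpoles at stage 46. The members were all annotated copies of 10 symbols: the transporters slc17a6, slc17a7 and slc17a8, and the factors tbr1, eomes, tlx3, barhl1, barhl2, pou4f1 and pou4f2. A gene was taken when its name in the deposited annotation matched one of these symbols after removal of .L or .S, the suffixes that mark the copies on the long and short subgenomes of this allotetraploid frog. This gave 18 of 45099 annotated genes, an L and an S copy for 9 symbols, with 4 transporter copies and 14 factor copies. No gene carried the plain name slc17a8.

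The data were 3 libraries of immature neuron-enriched material from tadpoles exposed to visual stimulation (IN), set against 3 of neural progenitor-enriched material from dark-exposed tadpoles (NPC). Every IN library was also a stimulated one and every NPC library a dark one, so cell population and visual condition cannot be told apart. No strain, genotype, transgene or age beyond the stage is given in the labels, nor how either population was enriched or whether libraries came from separate animals, so the spread behind each p-value is that of these libraries and may be technical. Library totals ran from 9388103 to 9914191 counted reads in IN and from 8422751 to 9655246 in NPC.

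Neurons that release glutamate load it into synaptic vesicles through the SLC17 transporters VGLUT1 (slc17a7), VGLUT2 (slc17a6) and VGLUT3 (slc17a8), so these genes mark the excitatory transmitter type. Upstream, T-box factors (tbr1, eomes), homeobox factors (tlx3, barhl1, barhl2) and POU factors (pou4f1, pou4f2) specify or maintain excitatory neuron classes in different brain regions of vertebrates. In the midbrain roof, pou4f1 is a known mark of excitatory neurons, and in the retina pou4f2 is known from ganglion cells, whose axons end in the tectum.

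Marker lists of the labelled material had reads in both groups, with exceptions among single genes. Midbrain genes such as pax7 and en2 summed to 493 ± 256 CPM in IN and 484 ± 97.7 CPM in NPC (SD, n = 3 each), where CPM is the usual depth-scaled read count, here also scaled for library composition. Of these, en1.L had 76, 25 and 7 reads in IN and en1.S had 94, 0 and 224, while both were at 0 in all NPC libraries. wnt1.L was at 35.5 ± 35.4 CPM in IN and 0.296 ± 0.320 CPM in NPC, without overlap (edgeR unadjusted p 0.00239, adjusted p 1). In the other direction, en2.L was at 28.3 ± 22.0 CPM in IN and 111 ± 86.3 CPM in NPC, with overlap. Its log2 fold change was -1.98 (edgeR unadjusted p 0.0445). Of the 12 midbrain copies with a fold change, 5 were above 0 and 7 below, with a median of -0.23. Progenitor genes summed to 2328 ± 772 CPM in IN and 2137 ± 944 CPM in NPC, and immature neuron genes to 6545 ± 1181 CPM in IN and 8138 ± 2898 CPM in NPC. Both sums overlapped between groups. Among single markers, the immature neuron gene elavl4.S was lower in IN without overlap, which is opposite to the label. It was at 143 ± 27.3 CPM in IN and 328 ± 164 CPM in NPC (log2 fold change -1.19, edgeR unadjusted p 0.0399, adjusted p 1). The L copy, elavl4.L, was at 223 ± 34.1 CPM in IN and 205 ± 39.4 CPM in NPC, with overlap (log2 fold change 0.12). Of the 14 immature neuron copies, 5 had log2 fold changes above 0 and 9 below, with a median of -0.19. The progenitor gene hes1.S was at 4.66 ± 3.48 CPM in IN and 91.6 ± 114 CPM in NPC, with overlap. Its log2 fold change was -4.29 (edgeR unadjusted p 0.00778, adjusted p 1), and that of hes1.L was -0.64 (edgeR unadjusted p 0.536). Of the 12 progenitor copies, 9 had log2 fold changes above 0 and 3 below, with a median of 0.29. In bulk RNA, fewer cells of a type and less RNA per cell cannot be told apart.

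Over all genes, 0 of 19158 tested (0%) passed edgeR's quasi-likelihood test after Benjamini-Hochberg adjustment at 0.05, while 658 (3.43%) had an unadjusted p under 0.05, and DESeq2 called 88 of 17621 (0.499%). Among the members, 15 of 18 copies held enough reads to be tested, and 0 passed with edgeR, while 1 had an unadjusted p under 0.05. With DESeq2, which gave no p for eomes.S, 0 of the other 14 passed. The adjusted p was 1 for each of the 15 with edgeR. Log2 fold changes (IN minus NPC) were above 0 for 8 copies and below 0 for 7, with a median of 0.02, against -0.03 over all tested genes. In 0 of the 15 copies were the CPM of the groups free of overlap, beside 8.76% of all tested genes, 4.70% higher and 4.06% lower in IN. The levels by library show this for each copy.

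**Figure D1:**
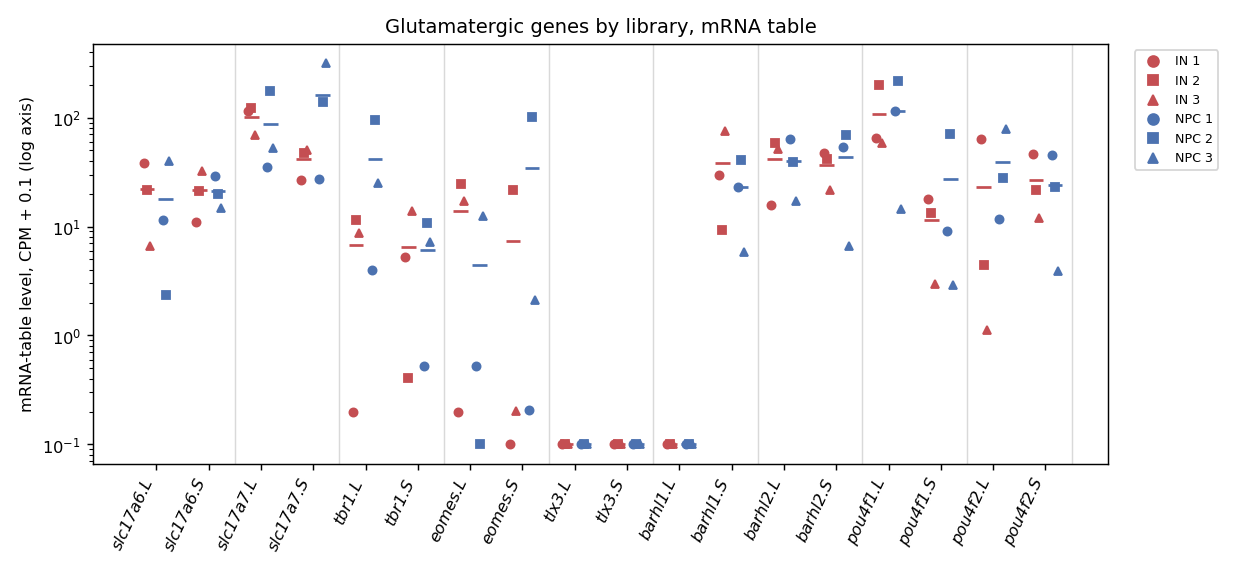
Level of each gene copy in each library in the mRNA table, as CPM + 0.1 on a log axis, with IN in red left of NPC in blue, libraries 1, 2 and 3 as circles, squares and triangles, and horizontal bars at the group means. The groups overlap for every tested copy, and tlx3.L, tlx3.S and barhl1.L lie at 0 in all 6 libraries.

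VGLUT1 is encoded by slc17a7, whose copies are given one by one. Its S copy (build 9.1, 7S, 79547777 to 79603300, minus strand) had 267, 462 and 492 reads in IN and 256, 1103 and 2498 in NPC. These were 41.3 ± 13.1 CPM in IN and 160 ± 146 CPM in NPC (SD, n = 3 each). NPC libraries 2 and 3 stood above all IN libraries, while NPC library 1 lay among them. The log2 fold change was -1.96 (SE 0.79, 95% interval -3.60 to -0.32, edgeR unadjusted p 0.0218, adjusted p 1), the lowest p among the members, and the exact permutation p was 0.3 (2-sided, 3 against 3, where the smallest possible is 0.1). Without NPC library 3 the log2 fold change was -1.0 (edgeR unadjusted p 0.298).

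The L copy, slc17a7.L (7L, 107956720 to 108007689, minus strand), had 1152, 1201 and 674 reads in IN and 334, 1391 and 415 in NPC, or 102 ± 28.2 CPM in IN and 87.2 ± 75.5 CPM in NPC (SD, n = 3 each). NPC library 2 was the highest of the 6 and the other NPC libraries were the lowest. Its log2 fold change was 0.22 (SE 0.72, edgeR unadjusted p 0.763). With both copies summed, slc17a7 was at 143 ± 24.3 CPM in IN and 244 ± 160 CPM in NPC, with a log2 fold change of -0.78 (SE 0.59, edgeR unadjusted p 0.202).

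slc17a6, which encodes VGLUT2, the form known from many subcortical excitatory neurons in mammals, had reads of both copies in every library. slc17a6.L (4L, 3610943 to 3631556, minus strand) had 390, 211 and 63 reads in IN and 107, 18 and 318 in NPC. slc17a6.S (4S, 19640485 to 19658464, plus strand) had 111, 209 and 311 reads in IN and 272, 158 and 117 in NPC. In IN, the library highest for the L copy was the lowest for the S copy and the reverse. The sum was at 43.5 ± 5.98 CPM in IN and 38.9 ± 16.6 CPM in NPC (SD, n = 3 each). Log2 fold changes were 0.30 (SE 1.37) for the L copy, 0.02 (SE 1.23) for the S copy and 0.16 (SE 0.90) for the sum.

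All 4 transporter copies together came to 190, 211 and 159 CPM in the IN libraries and 103, 334 and 424 CPM in the NPC libraries, an IN to NPC ratio of means of 0.651. The NPC libraries spanned the IN values, with 1 below and 2 above all of them. In coding sequence the copies summed to 99.0, 132 and 68.6 CPM in IN and 91.3, 43.8 and 394 CPM in NPC, a ratio of 0.566, and there NPC library 2 lay below all IN libraries and only NPC library 3 above them. Left out in turn, single libraries moved the mRNA-table ratio between 0.493 (without NPC library 1) and 0.855 (without NPC library 3).

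VGLUT3 was represented only by a pair named slc17a8-like, which the naming rule left out. slc17a8-like.L had 1, 0 and 20 reads in IN and 3, 1 and 0 in NPC, and slc17a8-like.S had 0, 37 and 0 reads in IN and 6, 0 and 0 in NPC. Neither had enough reads to be tested, and most reads of each came from a single IN library.

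Among the factors, the POU homeodomain factor pou4f1, also called Brn3a, had 650, 1967 and 564 reads of its L copy (2L, 125325139 to 125328937, plus strand) in IN and 1082, 1722 and 113 in NPC. Its CPM were 107 ± 80.0 in IN and 115 ± 100 in NPC (SD, n = 3 each), and library 2 was the highest in both groups. The log2 fold change was -0.10 (SE 0.79, 95% interval -1.75 to 1.56, edgeR unadjusted p 0.904). Coding reads made up 27.0% of these reads, with 414, 423 and 29 in IN and 5, 726 and 50 in NPC. In coding sequence the log2 fold change of the L copy was 0.05 (SE 1.39, edgeR). pou4f1.S (2S, 107586717 to 107590274, plus strand) had 180, 131 and 28 reads in IN and 84, 562 and 22 in NPC, so NPC library 2 held 60.6% of its CPM summed over libraries. Its log2 fold change was -1.27 (SE 1.44, edgeR unadjusted p 0.390), and 0.96 without NPC library 2.

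pou4f2, also called Brn3b, was read over both copies. pou4f2.L (1L, 51147960 to 51149599, minus strand) had 647, 43 and 10 reads in IN and 110, 220 and 616 in NPC. Its highest and lowest IN libraries differed more than the group means, 23.1 ± 35.4 CPM in IN and 39.0 ± 34.6 CPM in NPC. pou4f2.S (1S, 46550098 to 46553252, minus strand) had 471, 213 and 116 reads in IN and 431, 185 and 30 in NPC, with library 1 the highest and library 3 the lowest in both groups. Log2 fold changes were -0.76 (SE 1.30) for the L copy, 0.24 without NPC library 3 and -3.85 without IN library 1, and 0.14 (SE 1.22) for the S copy. A further pair named pou4f1.2 was outside the naming rule. pou4f1.2.L had 180, 53 and 5 reads in IN and 8, 546 and 23 in NPC, and its log2 fold change was -1.60 (SE 1.70, edgeR unadjusted p 0.356). pou4f1.2.S had 15, 68 and 46 reads in IN and 38, 0 and 1 in NPC, and its log2 fold change was 1.64 (SE 2.15, edgeR unadjusted p 0.452).

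The BarH-like homeobox factor barhl2, which acts in neurons of the retina and of the dorsal brain, had 158, 577 and 503 reads of its L copy (4L, 95975413 to 95980080, plus strand) in IN and 601, 314 and 136 in NPC. barhl2.S (4S, 78345114 to 78350084, plus strand) had 476, 410 and 207 reads in IN and 511, 551 and 52 in NPC. Among the NPC libraries both copies were lowest in library 3, and their log2 fold changes were 0.07 (SE 0.96) and -0.24 (SE 1.01), close to 0 beside their errors. The sum of both was 78.5 ± 18.9 CPM in IN and 82.7 ± 51.6 CPM in NPC (SD, n = 3 each).

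For barhl1, known from mouse cerebellar granule and spinal dorsal neurons, the S copy (8S, 31785659 to 31798358, minus strand) had 299, 90 and 729 reads in IN and 216, 325 and 45 in NPC. Its log2 fold change was 0.72 (SE 1.15, edgeR unadjusted p 0.540). In coding sequence alone the order turned, with 0, 40 and 37 reads in IN and 103, 287 and 7 in NPC, and the log2 fold change was -2.74 (SE 2.07, edgeR unadjusted p 0.199). Neither value passed, and IN library 1 held 299 reads over the gene but 0 in its coding exons.

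The L copy of barhl1 (8L, 7604008 to 7615630, minus strand) had 0 reads in every library of the mRNA table. In the STAR coding-sequence table the same gene had 310, 70 and 258 reads in IN and 31, 330 and 88 in NPC, 1087 in all, and 257, 55 and 221 in IN and 24, 278 and 76 in NPC with TopHat2. Its span lies wholly inside an unnamed gene on the opposite strand (8L, 7597987 to 7630682, plus strand). Of 200 genes with at least 50 coding reads that lie inside a gene on the opposite strand only, 198 (99.0%), barhl1.L included, had 0 reads in the mRNA table, against 0 of 16419 genes that overlap no other gene. Coding reads of barhl1.L were thus present in all 6 libraries. The opposite gene itself had 86 reads in the mRNA table and 0 coding reads, summed over the 6 libraries. Over coding sequence the log2 fold change of barhl1.L was 0.35 (SE 1.39, edgeR unadjusted p 0.804).

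The T-box factors tbr1 and eomes, which in mouse cortex mark postmitotic projection neurons and intermediate progenitors, had reads that differed widely between libraries. tbr1.L (9_10L, 61648726 to 61659951, plus strand) had 1, 112 and 83 reads in IN and 37, 755 and 198 in NPC, or 6.67 ± 5.86 CPM in IN and 41.1 ± 47.3 CPM in NPC (SD, n = 3 each). NPC library 2 held 65.8% of its CPM over the 6 libraries. The log2 fold change was -2.62 (SE 1.51, edgeR unadjusted p 0.0975), -1.11 without NPC library 2, and -0.16 (SE 2.06, edgeR) in coding sequence, where NPC library 2 had 19 reads. tbr1.S (9_10S, 56509085 to 56521306, plus strand) had 52, 3 and 135 reads in IN and 4, 85 and 56 in NPC, with a log2 fold change of 0.09 (SE 1.93).

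eomes, also called Tbr2, had reads in some libraries and was at or near 0 in others. eomes.L (6L, 46175337 to 46180845, minus strand) had 1, 241 and 165 reads in IN and 4, 0 and 99 in NPC. eomes.S (6S, 39839436 to 39845134, minus strand) had 0, 214 and 1 reads in IN and 1, 800 and 16 in NPC. Library 1 was at or near 0 for both copies in both groups, and NPC library 2 held 80.7% of the CPM of eomes.S. Log2 fold changes were 1.68 (SE 2.07, edgeR unadjusted p 0.427) for the L copy and -2.22 (SE 1.99, edgeR unadjusted p 0.277) for the S copy. Without NPC library 2 the S copy stood at 2.77, and without IN library 2 at -9.04.

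tlx3, a homeobox selector of glutamatergic over GABAergic fate in the spinal dorsal horn of mouse and chick, had 0 reads of either copy in every library and in every table (tlx3.L at 3L, 24958537 to 24964085, minus strand, and tlx3.S at 3S, 113467985 to 113476499, plus strand). A count of 0 allows up to 3 reads, which is 0.303 to 0.32 CPM, unscaled, in the IN libraries and 0.311 to 0.356 in the NPC libraries. This limit covers counting error only, since no molecular identifiers tell copies made by PCR from separate molecules. Transcripts of tlx3 were thus not detectable at this depth.

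The 14 factor copies together came to 290, 406 and 262 CPM in IN and 326, 690 and 175 CPM in NPC, an IN to NPC ratio of means of 0.804. That sum holds barhl1.L at 0, although it had coding reads in every library. In coding sequence, barhl1.L included, the copies summed to 503, 394 and 204 CPM in IN and 431, 817 and 238 CPM in NPC. The ratio there was 0.740, and the groups overlapped. The mRNA-table ratio was 1.27 without NPC library 2 and 0.628 without NPC library 3. In the mRNA table NPC library 2 was the highest of the 6 libraries for 6 of 15 tested members (40.0%) and for 20.6% of all tested genes. It also had the fewest genes detected, 21182 of 45099. IN library 1 and NPC library 3 were each the lowest for 5 of the 15, beside 16.4% of all tested genes for IN library 1 and 17.4% for NPC library 3.

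**Figure D2:**
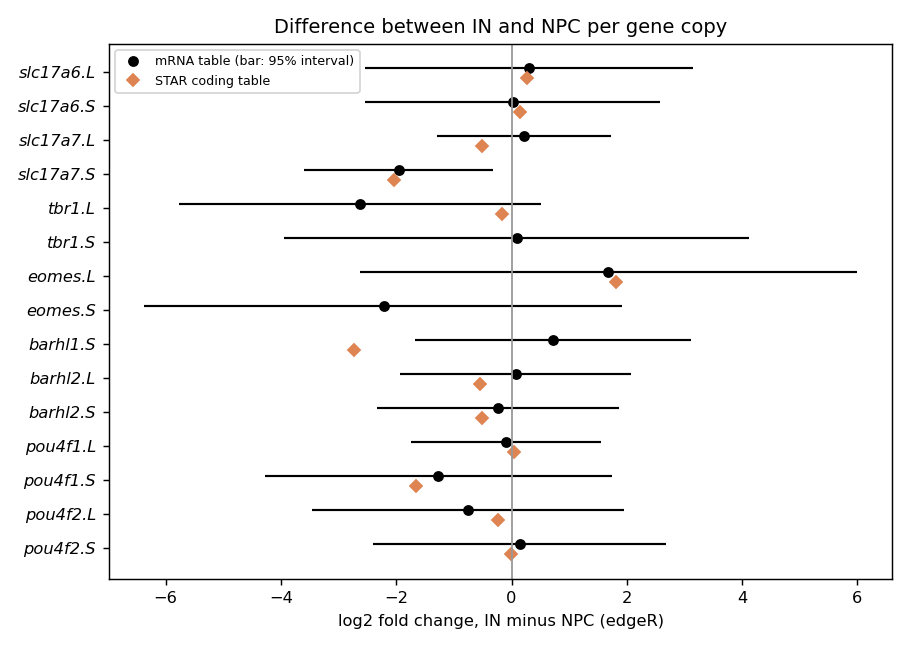
Log2 fold change (IN minus NPC, edgeR) of the 15 tested copies in the mRNA table, black points with 95% intervals, and in the STAR coding-sequence table, orange diamonds, where tbr1.S and eomes.S were not tested. The interval of slc17a7.S, -3.60 to -0.32, is the only one that leaves out 0 before adjustment. The intervals derive from the edgeR test itself, so this restates its unadjusted p under 0.05. barhl1.S, slc17a7.L, barhl2.L, pou4f1.L and pou4f2.S lie on opposite sides of 0 in the 2 tables.

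The uncertainty of these differences was wide. Standard errors among the 15 copies ran from 0.72 (slc17a7.L) to 2.07 (eomes.L), beside a median of 1.41 over all tested genes. The biological coefficient of variation, the spread between replicates beyond counting error, was 66.4% to 150% among the members and 110% at the median tested gene. The members' range thus lay around the value of other genes. edgeR draws each gene's value toward that of the others, so this likeness is partly set by the method. In all, 5 copies had at most 10 reads in at least 1 library, and the highest library held 25.1% to 80.7% of a copy's CPM, with a median of 37.1% beside 39.2% over all tested genes.

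How much of a gene's reads fell in coding sequence differed between members. The mRNA table counted reads over more than coding exons: of 2078 genes with several coding exons, no annotated UTR and no overlap, 87.8% had more reads there than in the coding table, against 0% of 427 such genes with 1 coding exon. The mRNA values therefore include reads that lie in the gene span but outside annotated exons. slc17a6.L, with 10 coding exons and no annotated UTR, had 1107 reads in the mRNA table and 920 in the coding table.

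Coding reads made up 7.32% of the mRNA-table reads of slc17a7.L, 39.3% of those of slc17a7.S, 83.1% of those of slc17a6.L and 67.6% of those of slc17a6.S. Among the factors the share ran from 21.8% (tbr1.S) to 98.4% (eomes.L), and the median over all tested genes was 52.9%. The slc17a7 genes span 50970 and 55524 bases with 1731 coding bases each, while the eomes genes span 5509 and 5699 bases. The share did not go by span in every copy. pou4f1.L spans 3799 bases with a share of 27.0%, and slc17a6.L spans 20614 bases with 83.1%. What sets the share was not tested. In NPC library 3, slc17a7.S had 1485 coding reads of 2498, and in NPC library 2 it had 62 of 1103. The coding table thus put slc17a7.S highest in NPC library 3, with 79, 264 and 53 reads in IN and 51, 62 and 1485 in NPC (log2 fold change -2.04, SE 1.28, edgeR unadjusted p 0.124).

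Levels of different genes were compared as coding CPM per kilobase of coding sequence, which corrects for length. Averaged over the 6 libraries, barhl2.L was highest at 62.9 ± 43.3 CPM per kb (SD, n = 6), followed by barhl2.S at 60.0 ± 42.4, pou4f1.L at 52.8 ± 58.4 and pou4f2.L at 49.1 ± 50.5. barhl1.L, absent from the mRNA table, came next at 38.4 ± 30.1. slc17a7.S followed at 38.2 ± 64.6, a mean that rests on NPC library 3 at 169, since the other 5 libraries lay between 5.05 and 29.3. By the median over libraries it was at 9.30 CPM per kb, below slc17a6.L at 21.1 and slc17a6.S at 15.0. pou4f2.S was at 33.5 ± 25.7 and slc17a6.L at 23.7 ± 18.5. Then came eomes.S, barhl1.S, pou4f1.S and slc17a6.S, between 18.3 and 15.0. The mean of eomes.S rests mostly on NPC library 2 at 90.1, and its median was 0.456. Medians were 7.01 for barhl1.S and 10.4 for pou4f1.S. Last by mean were slc17a7.L, eomes.L, tbr1.L and tbr1.S, between 7.76 and 1.12, with tlx3 at 0. All 17 neighbouring pairs in this order, the tlx3 copies at 0 among them, differed by no more than the larger of their SDs. Those SDs are spreads over the libraries of both groups, not errors of a difference between genes. The order between neighbours was not tested and is not taken as resolved. In coding sequence, too, the groups were free of overlap for 0 of 14 tested copies, beside 9.63% of 15422 tested genes. The plot of coding levels shows the same libraries on this scale.

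**Figure D3:**
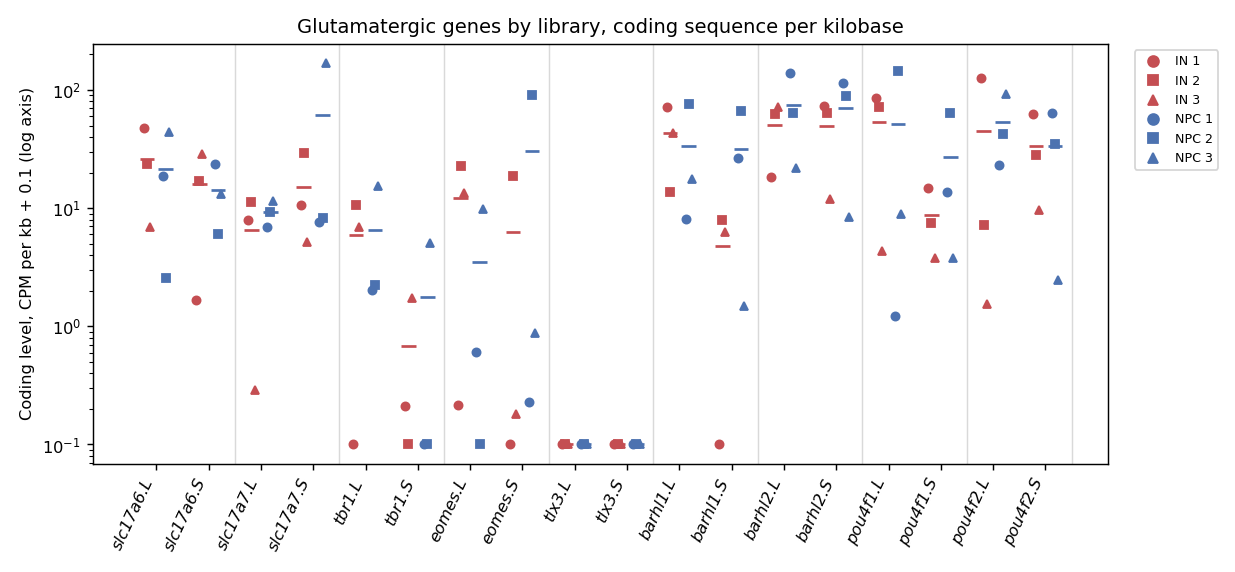
Level of each gene copy in each library as coding CPM per kb of coding sequence + 0.1 on a log axis, with IN in red left of NPC in blue, libraries 1, 2 and 3 as circles, squares and triangles, and horizontal bars at the group means. barhl1.L is present in all 6 libraries at 8.01 to 75.6 CPM per kb, and slc17a7.S reaches 169 CPM per kb in NPC library 3.

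The balance between L and S copies was not stable across libraries. In the mRNA table slc17a7.L took 81.2%, 72.2% and 57.8% of the reads of both copies in IN and 56.6%, 55.8% and 14.2% in NPC. The exact binomial 95% intervals, which cover counting error only, were 79.1% to 83.2% for IN library 1 and 13.0% to 15.6% for NPC library 3. Of the coding reads of the pair, slc17a7.L took 42.8%, 27.5% and 3.64% in IN and 47.4%, 53.4% and 6.31% in NPC. It thus led in 5 of 6 libraries of the mRNA table but in 1 of 6 in coding reads. In the mRNA table slc17a6.L took 77.8%, 50.2% and 16.8% in IN and 28.2%, 10.2% and 73.1% in NPC, so either copy could lead in either group. pou4f1 was the pair in which 1 copy led throughout, with 75.4% to 95.3% of reads on L in all 6 libraries of the mRNA table, though L took 7.81% of the coding reads in NPC library 1. The leading copy changed between libraries of the mRNA table in 6 of 7 tested pairs (85.7%), close to the 83.2% of 5841 pairs over the genome. In coding reads it changed in 7 of 7, beside 85.6% of the 5841 pairs.

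**Figure D4:**
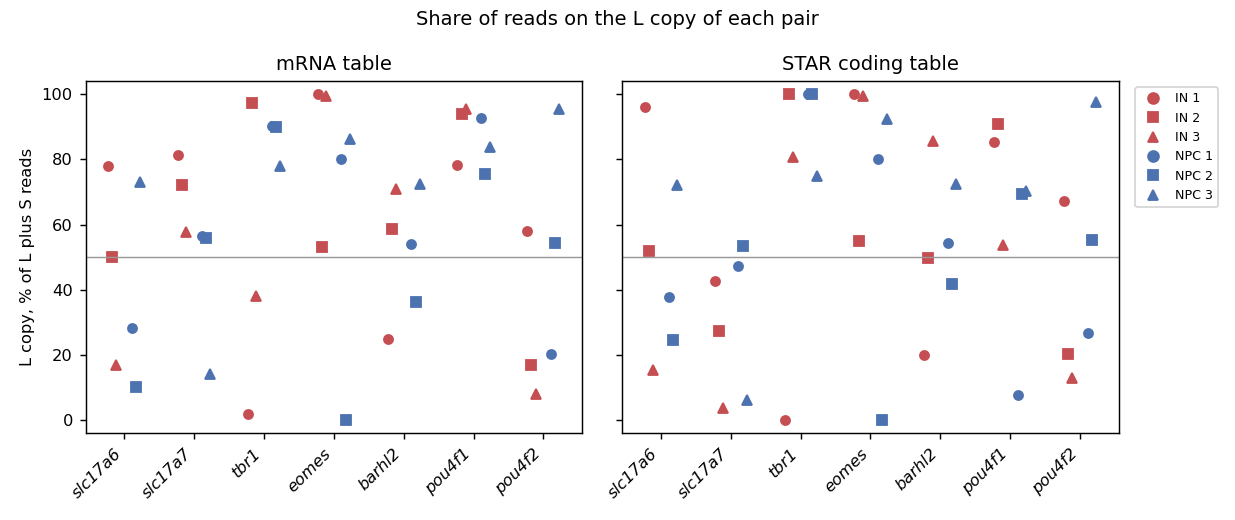
Share of L-copy reads among L plus S reads, in percent, for 7 pairs in the mRNA table (left panel) and the STAR coding table (right panel), with IN in red left of NPC in blue and libraries 1, 2 and 3 as circles, squares and triangles. Only pou4f1 stays above the 50% line in all 6 libraries of the mRNA table, from 75.4% to 95.3%.

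Related genes were read from 3 lists, of which 0 genes passed edgeR's test in either direction. In the glutamate cycle (synthesis, uptake and recycling), 18 of 21 copies were tested, with log2 fold changes above 0 for 11 and below 0 for 7 and a median of 0.09. By CPM, not corrected for length, its highest genes were the glial uptake carriers, slc1a3.L at 351 ± 5.55 CPM in IN and 416 ± 189 CPM in NPC, slc1a3.S at 254 ± 130 CPM in IN and 177 ± 52.5 CPM in NPC, and slc1a2.L at 239 ± 133 CPM in IN and 182 ± 47.8 CPM in NPC. Of lowest p, the glutamate dehydrogenase glud1.S had a log2 fold change of -1.21 (SE 1.11) and the glutamine carrier slc38a1.L one of 1.21 (SE 1.25).

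Among other factors of glutamatergic lineages, 19 of 34 copies were tested, 13 with log2 fold changes above 0 and 6 below, with a median of 0.32 beside -0.03 over all genes. The early B-cell factor ebf3.L, a factor of newly formed neurons, was the highest by CPM, at 449 ± 188 CPM in IN and 462 ± 145 CPM in NPC. ebf3.S was at 302 ± 94.6 CPM in IN and 223 ± 23.6 CPM in NPC, and bcl11b.L, known from subcortical projection neurons in mouse, at 177 ± 59.3 CPM in IN and 189 ± 55.8 CPM in NPC. By lowest p, the proneural gene neurog1.L had 1, 289 and 350 reads in IN and 0, 31 and 5 in NPC (log2 fold change 3.85, SE 2.08, edgeR unadjusted p 0.0790). ebf2.S had 859, 659 and 486 reads in IN and 219, 130 and 350 in NPC, without overlap, with a log2 fold change of 1.27 (SE 0.88, edgeR unadjusted p 0.166, adjusted p 1). The neuronal differentiation factor neurod1.L, named after its values were seen, had 283, 199 and 158 reads in IN and 2, 111 and 0 in NPC (log2 fold change 2.19, SE 1.83, edgeR unadjusted p 0.246). These 2 copies of 19 were higher in IN without overlap, beside 4.70% of all tested genes.

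Of other vesicular and SLC17 transporters, 4 of 8 copies were tested, 2 in each direction, with a median of -1.09. The carrier that loads GABA and glycine into vesicles, slc32a1.S, was at 111 ± 76.4 CPM in IN and 82.2 ± 6.42 CPM in NPC, and slc32a1.L at 21.6 ± 21.2 CPM in IN and 11.0 ± 10.6 CPM in NPC. The lysosomal sialic acid carrier slc17a5 had 0, 30 and 0 reads of its L copy in IN and 351, 14 and 18 in NPC, mostly from NPC library 1. Its S copy had 31, 4 and 3 reads in IN and 169, 0 and 43 in NPC.

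Several members are also known from neighbouring regions, so marker lists of those regions are given beside them. Telencephalon genes (9 of 11 copies tested) summed to 128 to 151 CPM in IN and 96.0 to 284 CPM in NPC, lowest in NPC library 2 and highest in NPC library 3. Habenula genes (4 of 11 tested, 5 copies at 0 in all libraries, both copies of chrnb4 and of chrna3 among them) summed to 221 to 266 CPM in IN and 122 to 270 CPM in NPC, with most of it in nrp1.L. Cerebellum genes (8 of 11 tested, gabra6.L at 0) summed to 167 to 223 CPM in IN and 156 to 325 CPM in NPC, highest in NPC library 2. Retina genes (5 of 11 tested, 2 copies at 0) summed to 12.9 to 41.1 CPM in IN and 1.12 to 49.3 CPM in NPC, lowest in NPC library 2. In the mRNA table NPC library 2 was also the highest library for tbr1.L and eomes.S, 2 of the 6 members of 15 that were highest there. It was the highest for 20.6% of all tested genes. In coding sequence tbr1.L was instead highest in NPC library 3 at 15.4 CPM per kb, with NPC library 2 at 2.15. eomes.S stayed highest in NPC library 2, at 90.1 CPM per kb. The part of other regions in the members' values was not tested.

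The transporter copy and the factor copy of highest mean CPM were set against all 15054 other genes that had a symbol and a mean of at least 5 CPM, by Pearson's r of log2 CPM over the 6 libraries. The genes most like slc17a7.S were csrnp2.S (r 0.985), sult4a1.S (r 0.983) and nap1l1.S (r 0.982). The genes most like pou4f1.L were bbs5.L (r 0.998), cers1.L (r 0.996) and chrm4.L (r 0.996). Like pou4f1.L, bbs5.L was highest in library 2 of both groups and lowest in NPC library 3, with 3.65, 54.0 and 4.63 CPM in IN and 17.4, 55.7 and 0 CPM in NPC. With 6 libraries, 105 genes reached an r above 0.9 with slc17a7.S and 169 with pou4f1.L, and the libraries' depth and composition are common to all of them.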

How the data were processed

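The authors deposited whole-number read counts, not normalized, in 3 tables: STAR alignments over mRNA (used for the results unless stated), STAR over coding sequence and TopHat2 over coding sequence, per the sheet names. Per the submitters' processing notes, the tools used also included HTSeq, DESeq2, Trimmomatic and FastQC. Their versions, the strand setting and the rule for multiply matching reads were not given in the sources used here, so reads of near-identical L and S copies may be dropped or misplaced. Reads were single-end, 100 bases long, per the labels' protocols. Columns D and L were read as dark (NPC) and light (IN). Gene names and positions (1-based) came from the deposited annotation, build 9.1, version 1.8.3.1 per the file headers. The name under which it was deposited gives version 1.8.3.2 instead. The annotation's other values are coordinates.

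Genes kept by filterByExpr were TMM-scaled and tested with edgeR 4.0.16 in R 4.3.3 (quasi-likelihood, robust, 2-sided, Benjamini-Hochberg over all genes, threshold 0.05). Transcript rows of the coding tables were summed per gene. Alternatives were 2 other scalings, 2 filters, DESeq2 1.42.0, limma-voom (limma 3.58.1), both coding tables, a block for the replicate number, leaving out single libraries, and summed copies. The code was checked on simulated counts. Named genes were all member copies; per list, those past the threshold or else the 3 most abundant and 2 of lowest p; and the 3 genes most like the most abundant transporter and factor copy. The rule for lists covered the lists of related genes, not the marker lists. The pou4f1.2 and slc17a8-like pairs, neurod1.L and the single marker genes given with values were chosen after their values were seen. Members and lists were chosen with earlier results of these data known.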

Additional observations from a re-analysis of the deposited data

Results flagged for a closer look

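barhl1.L was flagged because it had reads in data outside the main table: 1087 coding-sequence reads with STAR, summed over the 6 libraries, at 0 reads in the mRNA table. The gene lies inside a gene annotated on the opposite strand. It is 1 of 200 such genes with at least 50 coding reads, of which 198, barhl1.L included, were at 0 in the mRNA table.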

How the results depend on the processing

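Over all genes the count past the threshold was 0, but 16 without a read filter (4 higher in IN) and 88 with DESeq2 (44 higher in IN), and 0 to 2 with single libraries left out (1 without NPC library 1, 2 without NPC library 3). Among the members that each alternative tested it was 0 throughout, and the lowest adjusted p of any member was 0.478 (slc17a7.S, DESeq2). Log2 fold changes turned sign, each from a value not past the threshold, under limma-voom for slc17a6.S (-0.09), tbr1.S (-0.10), barhl2.L (-0.0018), barhl2.S (0.21) and pou4f1.L (0.32). With STAR coding counts they turned for slc17a7.L (-0.52), barhl1.S (-2.74), barhl2.L (-0.55), pou4f1.L (0.05) and pou4f2.S (-0.01). With TopHat2 they turned for slc17a7.L (-0.52), tbr1.L (0.0047), barhl1.S (-2.87) and barhl2.L (-0.59), and with upper-quartile scaling for pou4f1.L (0.01). The causes were not tested.

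Leaving out each library gave -0.36 to 1.71 for slc17a6.L, -0.39 to 0.33 for slc17a6.S, -0.17 to 1.22 for slc17a7.L, -2.47 to -1.0 for slc17a7.S, -3.26 to -1.11 for tbr1.L, -1.14 to 0.78 for tbr1.S, 0.96 to 5.93 for eomes.L and -9.04 to 2.77 for eomes.S. It gave -0.25 to 1.41 for barhl1.S, -0.29 to 0.55 for barhl2.L, -0.74 to 0.28 for barhl2.S, -0.90 to 0.74 for pou4f1.L, -1.81 to 0.96 for pou4f1.S, -3.85 to 0.24 for pou4f2.L and -0.53 to 0.97 for pou4f2.S.

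With the replicate number as a block, 0 genes passed, and the log2 fold change was -0.05 for slc17a6.S, 0.22 for barhl2.S, 0.32 for pou4f1.L and -1.42 for slc17a7.S. The main fit followed the groups in the labels and did not pair the samples by number. Same-numbered libraries deviated together only weakly (r 0.115, 0.047 and 0.081), which cannot decide whether they share a batch. Every library still correlated best with its own number, a hint from the data and not the design. Coding reads as a share of mRNA-table reads also went by number. The share was 45.9% in IN library 1 and 45.1% in NPC library 1. It was 54.0% and 55.1% in libraries 2, and 60.9% and 61.0% in libraries 3. Whether the numbers mark a batch or a pairing was not tested.

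With 3 libraries a group and a common biological coefficient of variation of 111%, the intervals span several-fold changes, and counts under 10 limit eomes and tbr1.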
